A study of Mus musculus with 2 samples.

Results

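The cells described here were single cells of mouse perivascular adipose tissue that held transcripts of at least 3 of 6 pericyte marker genes. The markers were Rgs5, a regulator of G protein signalling, Cspg4, the NG2 proteoglycan, Notch3, a Notch receptor of mural cells, Mcam, an adhesion molecule, and Kcnj8 and Abcc9, the subunits of a vascular potassium channel. A cell also needed at least 500 detected genes, at most 10% mitochondrial transcripts and 0 transcripts of 7 genes that mark other cells or division (Pecam1, Cdh5, Ptprc, Upk3b, Sox10, Top2a and Mki67). The rule found 58 such marker-holding cells among 15409 that passed the filter and 27740 barcodes in all. Since measured transcripts chose them, their marker levels are a description and not a result. They were set against the 6761 young and 5431 old cells that passed the same filter with 0 of the 6 markers, in the same library.

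The tissue had been dissected from the aorta of wild-type mice, labelled young in 1 library and old in the other, and its stromal cells had been released with collagenase. Libraries were 10x Genomics 3′ version 2, which count each transcript once by its unique molecular identifier (UMI). No source used here gives the ages in months, the number or sex of the mice or whether cells were sorted. Both groups are thus 1 library of an unstated number of animals, no value has a replicate check, no test exists and no p-value is given. Levels are UMIs summed over a set of cells and scaled to the total of that set, in the usual unit CPM, and each 95% interval covers counting error only.

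Pericytes are mural cells that wrap capillaries and share the basement membrane of the endothelium. Endothelial PDGF-B draws them in through the receptor Pdgfrb, Notch signals from the endothelium acting on Notch3 support their identity, and contractile proteins let them and the related smooth muscle cells set vessel tone. Perivascular fat also holds fibroblastic progenitors, which express Pdgfra and collagens and share several mural genes.

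The marker-holding cells made up 9 of 7942 young cells, 0.113% (95% Clopper-Pearson interval 0.0518 to 0.215), and 49 of 7467 old cells, 0.656% (0.486 to 0.867). All 9 young cells held exactly 3 markers. In the old library 41 held 3, 8 held 4, and 0 of 7467 held 5 or 6, with an upper limit of 0.0494% by the same interval. Just outside the rule lay the cells with 2 markers, 90 young (1.13%) and 302 old (4.04%). Before the 7 excluded genes were applied, 16 young and 105 old cells held 3 markers or more. Cells with Top2a or Mki67 but none of the other 5 genes made up all 7 of the young cells lost at that step and 39 of the 56 old ones. Another 15 of the lost old cells held Pecam1 or Cdh5, the endothelial genes.

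Depth moved with the choice. Median UMIs per cell were 15273 in the young marker-holding cells against 8031 in the young cells with 0 markers, and 9115 against 8027 in the old. After each cell was thinned to 3000 UMIs 0 young cells and 7 old cells (0.0972%) still held 3 markers. Scores in the top range of the doublet caller belonged to 2 of the 9 young cells (22.2%) and 6 of the 49 old cells (12.2%), against 7.65% and 7.66% of cells with 0 markers. Of the barcode strings, 275 occurred in both libraries, including that of 1 old and 0 young marker-holding cells.

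The young and old cells were chosen by the same rule, and among its markers they differed in Rgs5 and, less widely, in others. In all cells that passed the filter, Rgs5 stood at 1.52 CPM in the young library and 12.9 CPM in the old. Rgs5, the gene most often used to name pericytes, had 152 UMIs in 37 of the 49 old cells (296 CPM, 251 to 347) and 0 UMIs in the 9 young cells, a share with an upper limit of 33.6%. Notch3 was held by 47 old cells (158 CPM, 125 to 196) and 8 young cells (63.0 CPM, 28.8 to 120). Mcam was held by 33 (81.9 CPM) and 6 (84.0 CPM), and Cspg4 by 22 (56.5 CPM) and 5 (56.0 CPM). Of the channel subunits, Abcc9 was held by 13 of 49 old (26.5%) and 5 of 9 young cells (55.6%). Kcnj8 was held by 3 of 49 old (6.12%) and 3 of 9 young cells (33.3%). Rgs5, Notch3 and Mcam was the commonest exact set in the old library, with 14 cells, followed by Cspg4, Notch3 and Mcam with 10, which was also the commonest in the young library with 3.

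Most Rgs5 transcripts came from a few cells. The 5 old cells with at least 10 Rgs5 UMIs held 93 of the 152, while 20 cells had a single Rgs5 UMI. In the whole filtered old library Rgs5 was held by 9.22% of cells with Notch3 and by 4.57% of cells without it. In the young library the shares were 0.707% and 0.843%. Some other young pairs occurred together more often, with Cspg4 in 12.6% of cells with Mcam against 2.24% without, and Kcnj8 in 6.38% of cells with Abcc9 against 0.586% without. Others did not, with Cspg4 in 2.55% of cells with Notch3 against 2.46% without, and Rgs5 in 0% of cells with Cspg4 against 0.852% without. These shares were not thinned, and median UMIs were 9213 in young cells with 1 marker against 8031 in those with 0. In the old library 398 of the 7467 filtered cells held Rgs5. For comparison with other cell types, the old cells with Sox10, a Schwann cell gene, had a median of 5621 UMIs. Rgs5 was held by 0 of these 83 cells and Notch3 by 3.61%. Old cells with Upk3b, a mesothelial gene, with a median of 8509 UMIs, held Rgs5 in 5 of 65 (7.69%) and Notch3 in 10.8%, and old cells with Pecam1 and Cdh5, with a median of 11812 UMIs, held Rgs5 in 22 of 1075 (2.05%) and Notch3 in 5.30%. Mcam was in 43.4% and Cspg4 in 9.64% of these Sox10 cells. Whether such transcripts came from free RNA, from doublets or from the cells themselves was not tested.

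The label was then checked against 31 pericyte genes that the rule did not use. A gene counts as measured where its pooled level would give at least 20 UMIs in the smaller of the 2 sums, and as higher or lower from 1.5-fold on. In the old library 3253 genes were measured, of which 5.16% were higher and 9.25% lower in the marker-holding cells. Only 6 of the 31 pericyte genes were measured, and 4 of the 6 were higher, with a median log2 difference of 1.18 against −0.0536 over all measured genes. The 4 were Pdgfrb, Mustn1, Rgs16 and Gm13889. In the young library 875 genes were measured, of which 3.66% were higher and 11.8% lower, and 1 of the 2 measured pericyte genes, Pdgfrb, was higher.

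Pdgfrb, the PDGF receptor that pericytes need, stood at 263 CPM in the old marker-holding cells and 142 CPM in the old cells with 0 markers, a log2 difference of 0.89 (0.63 to 1.13). It was found in 42 of the 49 cells, with at most 9 UMIs in any of them. In the young library the levels were 217 and 141 CPM, a log2 difference of 0.62 (0.07 to 1.13) that became 0.33 without the cell that held most Pdgfrb UMIs. Mustn1, a small protein of muscle and mural cells, stood at 468 against 168 CPM in the old library (1.48, 1.28 to 1.66). Rgs16, a relative of Rgs5, stood at 193 against 58.9 CPM (1.71, 1.41 to 2.001). Gm13889 had the largest difference of the list, 197 against 37.8 CPM (2.38, 2.08 to 2.67), but only 16 of the 49 cells held it.

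Several genes that mark pericytes of other tissues had few or no UMIs. Vtn, which encodes vitronectin, had 0 UMIs in all 58 cells, and Anpep, the aminopeptidase CD13, had 1. Higd1b had 4 UMIs in 3 old cells, against 1 UMI in all 5431 old cells with 0 markers (log2 difference 8.54, 5.20 to 14.16). Rgs4 had 3 UMIs, and Myocd, the coactivator of smooth muscle genes, had 1. Below the limit for measured genes, but with more UMIs, were Ndufa4l2, a mitochondrial protein of mural cells, at 101 against 26.3 CPM in 17 old cells (1.94, 1.51 to 2.34), Cox4i2 at 46.8 against 16.6 CPM in 18 cells (1.499, 0.85 to 2.08) and the transcription factor Foxs1 at 46.8 against 15.4 CPM in 17 cells (1.60, 0.95 to 2.19). Ebf1, a transcription factor of mural cells and of fat progenitors, was 1.39-fold higher in the old cells (0.48, 0.25 to 0.70), short of the limit, and Postn did not differ beyond counting error (−0.09, −0.60 to 0.38).

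Transcripts of fibroblast genes were also found. Pdgfra, the receptor of fibroblastic progenitors, was held by 29 of the 49 old cells (59.2%) and by 68.9% of old cells with 0 markers, and by 3 of the 9 young cells (33.3%) against 49.8%. Thinned to 3000 UMIs, the old shares were 35.4% and 42.1%. Pdgfrb and Pdgfra were together in 23 old cells, and Pdgfra or Dcn, the matrix proteoglycan decorin, was found in 35 old and 4 young cells. The cells are called marker-holding cells below, by the rule that chose them.

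Contractile genes of smooth muscle were higher in the old marker-holding cells. Of 32 such genes 15 were measured in the old library, and 11 were higher and 0 lower, with a median log2 difference of 0.88. Summed over the list, contractile transcripts stood at 13521 CPM (13205 to 13843) in the old marker-holding cells against 7452 CPM (7428 to 7477) in the old cells with 0 markers. The level also stood higher with each further marker, at 8213 CPM with 1 and 9886 CPM with 2. In the young library 2 of 10 measured genes, Flna and Vcl, were higher, and the sum was 9863 CPM (9355 to 10392) against 8909 CPM, below the 11132 CPM of young cells with 2 markers. Without the cell with most UMIs of each gene, Flna (0.55) and Vcl (0.38) fell short of 1.5-fold in the young library, where their log2 differences were 0.82 and 0.63.

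**Figure D1:**
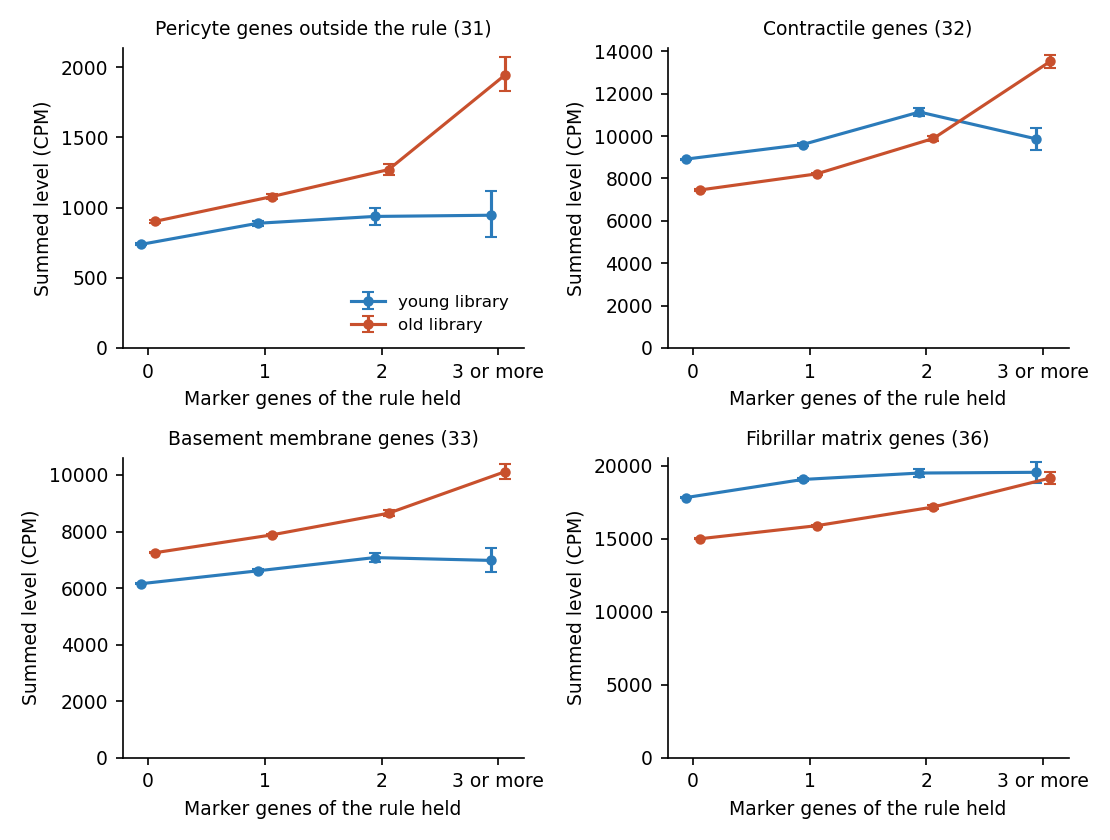
Summed level in CPM of 4 gene lists (vertical axes, from 0) against the number of the 6 rule markers a cell held (horizontal axes), in the young (blue) and old (orange) library; bars are 95% Poisson intervals that cover counting error only. In the old library each list stands highest in cells with 3 or more markers, with contractile genes at 13521 CPM against 7452 CPM with 0 markers, while the young contractile level is highest with 2 markers.

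Part of this group shares a promoter element, shown here for the 3 genes with it that were measured in the old cells. The CArG box, to which serum response factor binds, lies in the 250 bases before a RefSeq start of 4 of the 27 contractile genes with a promoter on record (14.8%), against 1.62% of 27025 genes, with the GRCm38.p6 build. Only the exact box was searched for, 10 bases that begin with CC, end with GG and hold only A or T between. Boxes with a mismatch, or outside these 250 bases, were not searched for. A CArG box read backwards on the other strand is a CArG box again, so both strands are covered. Those 3 are printed 5′ to 3′ on the plus strand with the box in capitals, for Myl9 at chr2:156775243-156775372, for Filip1l at chr16:57549120-57549241 and for Vcl at chr14:20929148-20929240. A match is a description of the letters, not a bound site.
Myl9: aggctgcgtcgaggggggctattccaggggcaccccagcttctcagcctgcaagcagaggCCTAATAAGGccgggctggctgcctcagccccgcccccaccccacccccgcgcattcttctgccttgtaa
Filip1l: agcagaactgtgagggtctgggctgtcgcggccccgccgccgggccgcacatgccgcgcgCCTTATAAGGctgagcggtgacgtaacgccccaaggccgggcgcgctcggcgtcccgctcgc
Vcl: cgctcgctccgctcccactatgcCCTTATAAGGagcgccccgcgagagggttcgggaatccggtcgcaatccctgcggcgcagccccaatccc

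All 3 were among the 11 of 15 measured contractile genes that were higher in the old marker-holding cells. Of the 13 measured genes with a promoter on record only these 3 had the box, and a link between box and level was not tested. Myl9, the regulatory light chain of myosin, stood at 563 CPM against 201 CPM (log2 difference 1.48, 1.31 to 1.65), and 43 of the 49 cells held it. Filip1l, a filamin-interacting protein, stood at 168 against 55.6 CPM (1.59, 1.27 to 1.90), and Vcl, the adhesion protein vinculin, at 175 against 87.2 CPM (1.01, 0.69 to 1.31). In the young library Myl9 stood at 511 against 373 CPM (0.45, 0.10 to 0.79), under the limit.

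Acta2, smooth muscle actin, on chromosome 19 from 34241090 to 34255590, had the most UMIs of the list. It stood at 3802 against 1737 CPM in the old library (1.13, 1.06 to 1.19), and 48 of the 49 cells held it with 163 UMIs at most. Tagln, which encodes SM22α, stood at 1416 against 760 CPM (0.90, 0.79 to 1.00) in 47 cells. Tpm2, a tropomyosin of smooth muscle, stood at 1406 against 704 CPM (1.00, 0.89 to 1.10), and Csrp1, a muscle LIM protein, at 242 against 107 CPM (1.17, 0.91 to 1.43). The young levels of Acta2 were 1890 and 1990 CPM (−0.07, −0.25 to 0.10) and those of Tagln 1372 and 1200 CPM (0.19, −0.02 to 0.40), so neither differed beyond counting error between the young sets.

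The late smooth muscle genes were low. Myh11, smooth muscle myosin heavy chain, had 18 UMIs in 12 old cells, 35.1 CPM against 6.12 CPM (2.52, 1.74 to 3.21), below the limit for measured genes. Des, the intermediate filament desmin, had 24 UMIs in 8 cells, 46.8 against 9.71 CPM (2.27, 1.61 to 2.86). Cnn1, calponin, was measured and not higher, at 85.8 against 69.4 CPM (0.31, −0.16 to 0.73).

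The contractile result depended on which cells were admitted. With cells of at least 4 markers 7 of 7 measured genes were higher, and with cells of at least 2 markers 10 of 24 (41.7%). Among cells that kept 3 markers after thinning it was 0 of 5, and with Top2a or Mki67 cells kept 6 of 17. It stayed at 11 of 15 with the highest doublet scores removed and with the comparison restricted to cells with Pdgfra.

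**Figure D2:**
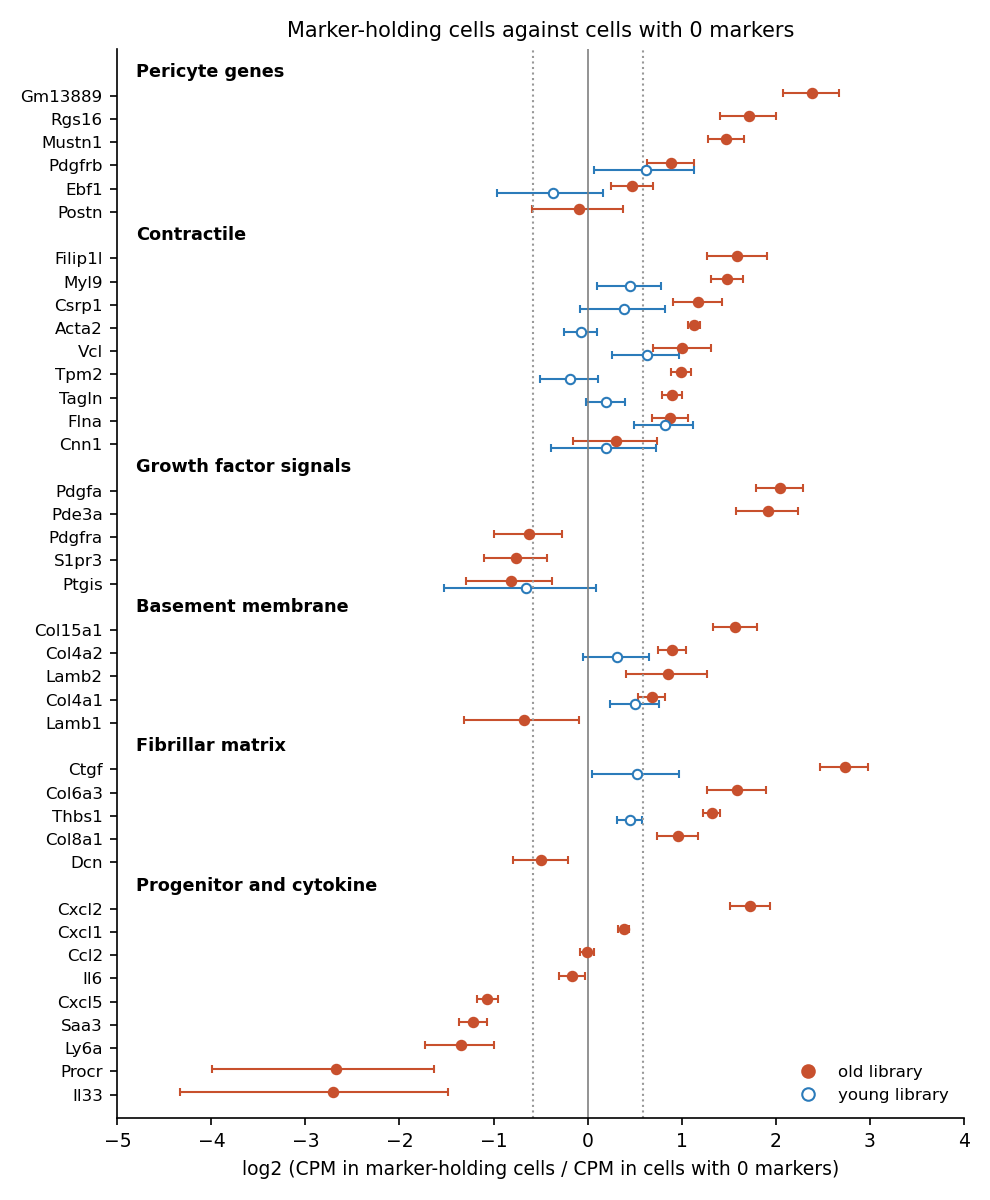
log2 difference in CPM (horizontal axis) between marker-holding cells and cells with 0 markers of the same library for named genes by group, old library filled and young library open, where measured; bars are 95% intervals of counting error and dotted lines mark 1.5-fold. Contractile genes lie to the right in the old library, with Acta2 at 1.13, and within 1.5-fold in the young library apart from Flna and Vcl, with Acta2 at −0.07.

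Among growth factors and their receptors, 12 of 30 genes were measured in the old library, with 3 higher and 3 lower. Pdgfa, a PDGF chain that binds Pdgfra, stood at 275 against 66.7 CPM (2.04, 1.79 to 2.29) in 31 cells. Its receptor was lower, with Pdgfra at 129 against 198 CPM (−0.62, −0.996 to −0.28). S1pr3, a receptor for sphingosine 1-phosphate, stood at 148 against 251 CPM (−0.76, −1.11 to −0.44). Angpt1, the angiopoietin that pericytes send to the endothelium, had 1 UMI.

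Notch partners were sparse. None of the 25 Notch genes was measured in the young library, and of 4 measured in the old library 0 were higher and Notch2 was lower, at 15.6 against 39.3 CPM (−1.33, −2.55 to −0.35). Below the limit stood Jag1, a Notch ligand, at 48.7 against 12.5 CPM in 14 old cells (1.96, 1.32 to 2.54). It stood at 112 against 18.1 CPM in the young library (2.63, 1.82 to 3.34), or at a log2 difference of 0.83 without its highest young cell. Heyl, a target of Notch3, had 8 UMIs in each library, in 5 old and 3 young cells, with log2 differences of 2.31 (1.07 to 3.33) and 4.94 (3.69 to 5.97).

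Genes of vascular tone were mostly too low to measure, 4 of 44 in the old library. Pde3a, a phosphodiesterase that breaks down cyclic nucleotides, was the 1 that was higher, at 158 against 41.8 CPM in 38 of the 49 cells (1.92, 1.58 to 2.24). Ptgis, the prostacyclin synthase, was the 1 that was lower, at 81.9 against 144 CPM (−0.81, −1.29 to −0.38). Ednra, the endothelin receptor, had 16 UMIs in 13 cells, 31.2 against 8.20 CPM (1.93, 1.11 to 2.65), and Gucy1a1 and Gucy1b1, the subunits of the nitric oxide receptor, had 4 UMIs each. Agtr1a, the angiotensin receptor, had 3.

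Basement membrane genes were more often higher than lower in the old library. Of 33 genes 13 were measured, with 6 higher and 2 lower and a median log2 difference of 0.56. Col4a1 and Col4a2, the chains of collagen IV, stood at 741 against 462 CPM (0.68, 0.53 to 0.83) and 729 against 392 CPM (0.90, 0.74 to 1.04), and 47 and 48 of the 49 cells held them. Col15a1, a collagen of the basement membrane zone, stood at 308 against 104 CPM (1.57, 1.33 to 1.80), and Lamb2, the laminin chain of vessels, at 93.6 against 51.7 CPM (0.86, 0.41 to 1.27). Lamb1, its counterpart, was lower, at 46.8 against 74.5 CPM (−0.67, −1.32 to −0.10). None of 6 measured genes passed 1.5-fold in the young library, where Col4a1 stood at 868 against 613 CPM (0.50, 0.24 to 0.76).

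Fibrillar matrix genes, typical of fibroblasts, were as a list not lower in the old marker-holding cells. Of 36 genes 28 were measured in the old library, with 8 higher, 0 lower and a median of 0.32, and their sum was 19154 against 14995 CPM. Most of the 28, 20 genes, lay within 1.5-fold. In the young library 16 were measured, with 0 higher, 1 lower and a median of 0.08. Ctgf, a matricellular growth factor on chromosome 10 from 24595442 to 24598683, had the largest difference of the ranked genes in the old library, 269 against 40.4 CPM (2.73, 2.48 to 2.98), in 28 cells. Thbs1, thrombospondin 1, stood at 2043 against 818 CPM (1.32, 1.23 to 1.41), and Col6a3, a chain of collagen VI, at 177 against 58.8 CPM (1.59, 1.27 to 1.89). Dcn stood at 193 against 272 CPM (−0.49, −0.79 to −0.21), short of the limit.

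Elastin was high in a few cells. Eln, below the limit for measured genes, had 68 UMIs in 15 old cells, 133 against 8.53 CPM (3.96, 3.57 to 4.33). In the young library 65 of the 73 Eln UMIs came from 1 of the 9 cells, and the log2 difference of 3.71 became 0.86 without it. Mgp, matrix Gla protein, an inhibitor of vessel calcification, stood at 4209 against 1429 CPM in the old library (1.56, 1.496 to 1.62).

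Genes of adventitial progenitors were lower in the old marker-holding cells. Of 22 genes 8 were measured, with 0 higher, 5 lower and a median of −0.83. Procr, the protein C receptor, had 7 UMIs, 13.6 against 87.1 CPM (−2.67, −3.99 to −1.63). Ly6a, the stem cell antigen Sca-1, stood at 125 against 317 CPM (−1.35, −1.72 to −0.99), and Gfpt2, an enzyme of hexosamine synthesis, at 79.9 against 226 CPM (−1.502, −1.98 to −1.06). Pi16, a marker of progenitors of the adventitia, had 16 UMIs in 6 cells, 9 of them in 1 cell, 31.2 against 64.1 CPM (−1.04, −1.85 to −0.34).

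The inflammatory genes of the old cells divided. Of 37 genes 19 were measured, with 2 higher and 8 lower. Il33, an alarmin of progenitors, had 5 UMIs, 9.75 against 63.6 CPM (−2.71, −4.33 to −1.48), and its receptor gene Il1rl1 had 3 UMIs, 5.85 against 45.8 CPM (−2.97, −5.25 to −1.42). Saa3, an acute phase protein, stood at 729 against 1695 CPM (−1.22, −1.37 to −1.07) and Cxcl5, a neutrophil chemokine, at 1316 against 2752 CPM (−1.06, −1.18 to −0.95). Cxcl2, another neutrophil chemokine, was higher, at 368 against 111 CPM (1.73, 1.51 to 1.94), in 20 of the 49 cells. The monocyte chemokine Ccl2 stood at 2882 against 2894 CPM (−0.01, −0.08 to 0.07) and the cytokine Il6 at 850 against 952 CPM (−0.16, −0.30 to −0.03).

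Other marker lists were near the floor. Summed markers of blood endothelium stood at 216 CPM in the old marker-holding cells and 195 CPM in the old cells with 0 markers. Cells with Pecam1 and Cdh5 had 3300 CPM. In the old marker-holding cells 13 of the 20 genes were detected and 7 were at 0, among them Tie1, Tek, Vwf and Erg. Only Eng was measured, and it was higher (log2 difference 0.63, or 0.35 without its highest cell). Leukocyte markers stood at 72.1 against 218 CPM, with 15 of 22 genes at 0, and Schwann markers at 17.5 against 15.1 CPM, with 11 of 15 at 0. Adipocyte markers stood at 33.1 against 102 CPM, with 9 of 15 at 0. In the 9 young cells all 22 leukocyte genes were at 0, and 15 of 20 endothelial, 14 of 15 Schwann and 14 of 15 adipocyte genes.

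The 49 old cells varied widely among themselves. Contractile transcripts per cell ran from 3472 to 45588 CPM with a median of 12244, against a median of 5721 CPM in cells with 0 markers, whose 95th percentile was 16746 CPM. They exceeded that median in 42 cells and that percentile in 15. Fibrillar matrix transcripts ran from 5346 to 33790 CPM with a median of 18216, and 36 cells lay above the 14904 CPM of cells with 0 markers. Inflammatory transcripts ran from 2058 to 61183 CPM, with 23 of 49 cells above the median of 16309 CPM. The 9 young cells ran from 5751 to 17349 CPM for contractile transcripts, and 6 lay above the 7379 CPM median of young cells with 0 markers.

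**Figure D3:**
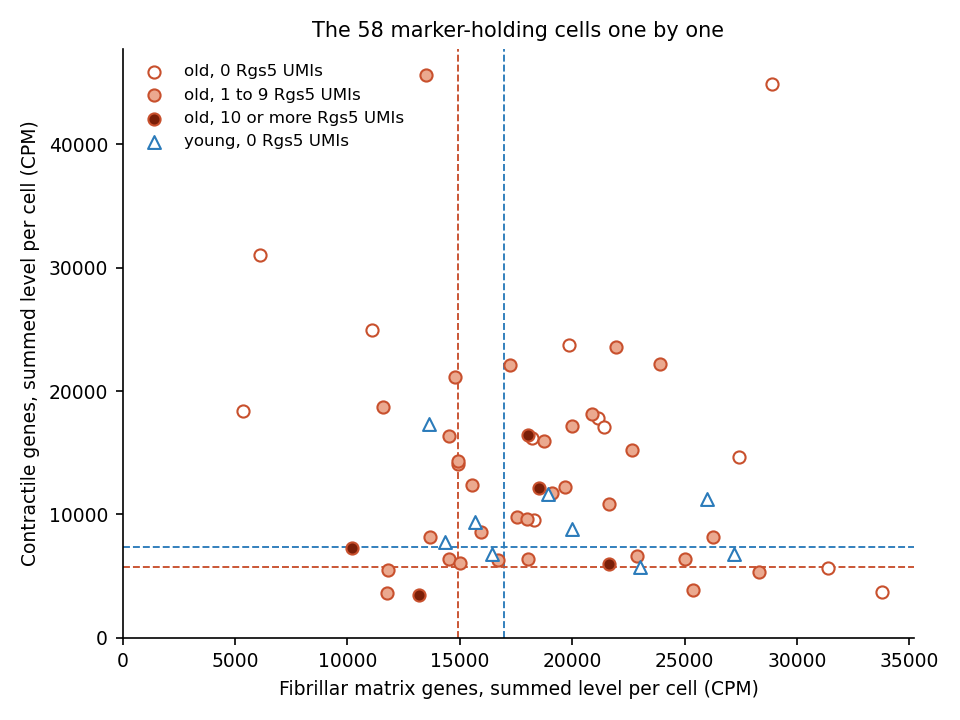
Summed contractile level per cell (vertical axis, CPM) against summed fibrillar matrix level (horizontal axis, CPM) for each of the 58 marker-holding cells; circles are old cells shaded by Rgs5 UMIs, triangles young cells, and dashed lines the medians of cells with 0 markers in the old (orange) and young (blue) library. Most old cells lie above the contractile median of 5721 CPM, and those with 10 or more Rgs5 UMIs are not the ones with the most contractile transcripts.

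Summed contractile transcripts were lower in the old cells with Rgs5 than in those without, although the single highest old cell, at 45588 CPM, held 1 Rgs5 UMI. Since Rgs5 belongs to the rule, this split is a description, and a cell without Rgs5 had to hold 3 of the other 5 markers, which in 10 of 12 cells were Cspg4, Notch3 and Mcam. Contractile genes summed to 12252 CPM (11906 to 12604) in the 37 old cells with Rgs5 and 17515 CPM (16785 to 18268) in the 12 without. Immediate early genes, induced within minutes by stress or growth factors, summed to 3934 and 6749 CPM. Medians per cell were 10868 and 17440.5 CPM for contractile genes, and closer together, at 3275 and 4401 CPM, for immediate early genes. Median depth was 9115 and 8723.5 UMIs per cell.

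Named genes differed in both directions between these cells. Thbs1 stood at 1326 CPM with Rgs5 and 4300 CPM without (log2 with over without −1.70, −1.87 to −1.52), and Cxcl2 at 180 and 962 CPM (−2.42, −2.87 to −1.98). In the opposite direction stood Cxcl12, the chemokine that retains blood progenitors, at 1899 and 428 CPM (2.15, 1.75 to 2.58), Cxcl5 at 1639 and 299 CPM (2.45, 1.98 to 2.97) and Dcn at 231 and 72.7 CPM (1.67, 0.68 to 2.84). Of the 5 cells with at least 10 Rgs5 UMIs, 4 held Dcn, with 38 UMIs among them. Pdgfrb stood at 242 and 331 CPM (−0.46), a difference within counting error. The 31 pericyte genes outside the rule summed to 1747 CPM (1618 to 1884) with Rgs5 and 2570 CPM (2295 to 2869) without. Among them Gm13889 stood at 139 and 380 CPM, Rgs16 at 154 and 315 CPM and Mustn1 at 411 and 647 CPM. Ebf1 stood at 337 and 267 CPM (0.34, −0.22 to 0.93).

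**Figure D4:**
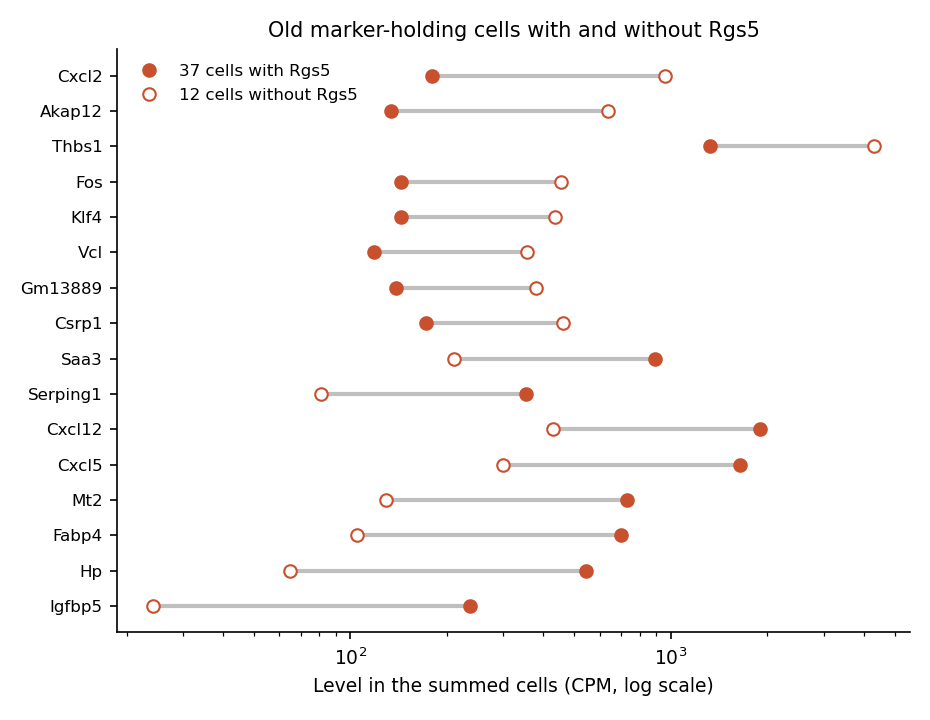
Level in CPM (horizontal axis, log scale) in the 37 old marker-holding cells with Rgs5 (filled) and the 12 without (open), for the named genes with the 8 lowest and 8 highest ratios. Thbs1 lies at 1326 CPM with and 4300 CPM without Rgs5, and Cxcl12 at 1899 CPM with and 428 CPM without.

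With 9 young cells, a high level could come largely from a single cell. Timp3, an inhibitor of matrix proteases, stood at 1141 against 267 CPM (2.09, 1.86 to 2.32), but 113 of its 163 UMIs were in 1 cell, and the log2 difference was 0.59 without it. Flna, filamin A, stood at 595 against 337 CPM (0.82, 0.49 to 1.13).

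Lower genes of the young cells included those of fat. Of 29 adipogenic genes 6 were measured, with 0 higher, 5 lower and a median of −1.14, and their sum was 1169 against 2314 CPM. Lpl, lipoprotein lipase, had 10 UMIs, 70.0 against 271 CPM (−1.95, −3.01 to −1.07), and F3, tissue factor, had 8 UMIs, 56.0 against 360 CPM (−2.68, −3.90 to −1.70). Spp1, osteopontin, had 4 UMIs, 28.0 against 228 CPM (−3.03, −4.90 to −1.67), and was lower in the old library too, at 265 against 940 CPM (−1.83, −2.08 to −1.58). In the old library 1 of 7 adipogenic genes was higher and 1 lower. The higher was Fabp4, a fatty acid carrier, at 556 against 342 CPM (0.70, or 0.03 without its highest cell), and the lower was Lpl at 209 against 350 CPM (−0.75, −1.04 to −0.47).

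Old was then compared with young within the marker-holding cells, where age, library and the mix of markers cannot be told apart. Of 961 genes measured, 26% were higher and 9.57% lower in the old cells, against 15.2% and 7.49% of the same genes in the cells with 0 markers. Inflammatory genes stood far higher, 9 of 10 measured, with a median log2 difference of 4.66, and the same 10 genes in the cells with 0 markers gave 9 higher and a median of 4.84. Cxcl1, which attracts neutrophils, had a level of 21.0 CPM in young marker-holding cells and of 4426 CPM in old ones (7.72, 6.17 to 10.00), and at 27.9 and 3395 CPM in cells with 0 markers (6.93). Ccl2 stood at 42.0 and 2882 CPM (6.10, 4.97 to 7.55), against a difference of 4.69 in cells with 0 markers. For Il6 the difference was 4.34 in the marker-holding cells and 5.001 in those with 0 markers. Both sets of cells thus showed the difference, and whether its size differed between them was not tested.

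Contractile genes differed between the ages in both directions. Acta2 was higher in old than in young marker-holding cells (1.01, 0.82 to 1.20) and lower in old than in young cells with 0 markers (−0.20). Tpm2 showed 1.19 (0.87 to 1.53) against 0.01. Of 13 contractile genes measured 5 were higher and 2 lower, against 0 higher and 5 lower of the same genes in cells with 0 markers. The 2 lower genes were Vcl (−1.44, −1.91 to −0.96) and Actg2, a smooth muscle actin (−0.60), which had differences of −1.82 and 0.13 in cells with 0 markers. Actg2 was named after its values were seen. Cnn1, below the limit for measured genes in this comparison, had −1.19 (−1.91 to −0.45) against −1.30. Among the ranked lower genes were Timp3 (−2.85, −3.26 to −2.46), which rests on the single young cell above, and Lox, the lysyl oxidase that crosslinks collagen, at 1288 and 431 CPM (−1.58, −1.87 to −1.29), against −1.11 in cells with 0 markers.

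**Figure D5:**
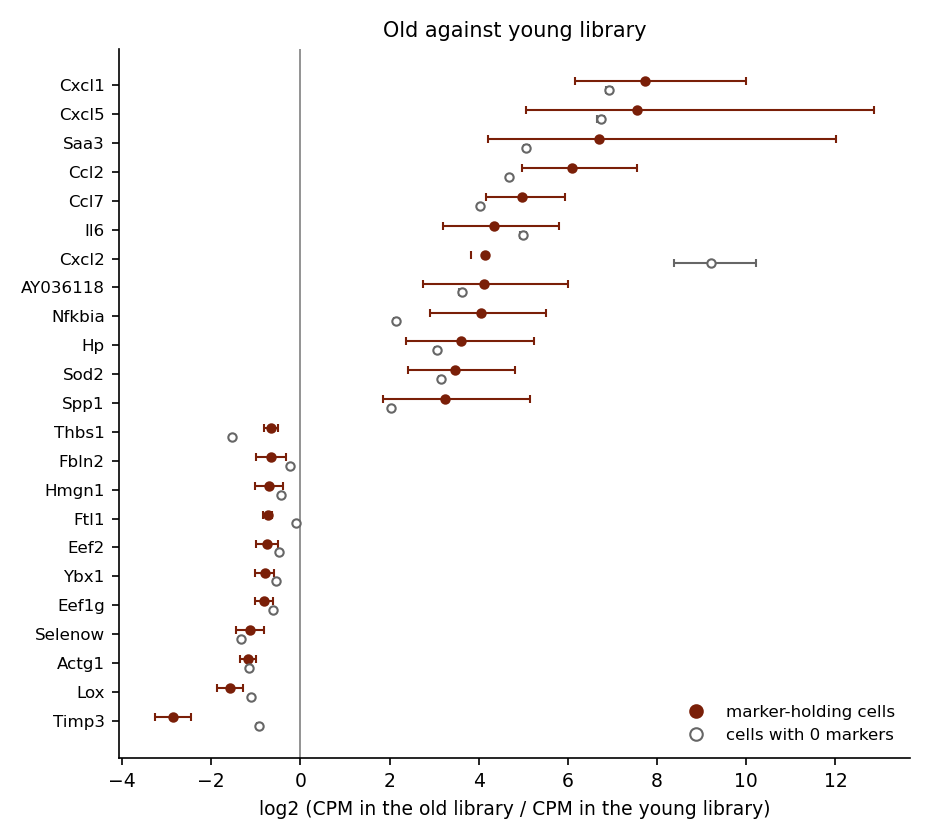
log2 of CPM in the old over the young library (horizontal axis) for 23 ranked genes, in marker-holding cells (filled) and in cells with 0 markers (open); bars are 95% intervals of counting error. Inflammatory genes lie far to the right in both sets, with Cxcl1 at 7.72 and 6.93, and Cxcl2, which had 0 UMIs in the young marker-holding cells and was set to 3, is a lower bound there.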

How the data were processed

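The deposited values were raw UMI counts per gene and cell barcode for 1 young and 1 old library, made by the authors with Cell Ranger 3.0.1, per the file headers, on mm10, per the submitters' processing notes. The libraries held 13104 barcodes with 130398999 UMIs and 14636 barcodes with 147166475 UMIs. The members and gene lists were chosen with earlier results of these data known. Counts were summed over the cells of a set and divided by the set's total (CPM), with exact Poisson 95% intervals, and ratios carry exact conditional intervals. A sum of 0 was set to 3 UMIs before a ratio was taken. A gene was measured where its pooled CPM gave at least 20 UMIs in the smaller sum. Named genes were the 15 highest and 10 lowest ratios per library and the 12 highest and 12 lowest between ages, among measured genes with at least 100 UMIs in the set with the higher CPM, up to 6 per list and a set of genes named whatever their values. Doublets were not removed, because Scrublet's own threshold called 0 young and 5 old barcodes. In an alternative the highest scores were removed, 0.8% per 1000 barcodes (1302 and 1504). The ratio and its interval were tested on simulated Poisson sums, which hold no spread between cells and so check counting error only. Analyses used Python 3.11.15, numpy 2.4.6, scipy 1.17.1, pandas 2.3.3 and scanpy 1.11.5. Gene positions are from GENCODE M21 on GRCm38, and promoters from RefSeq, GRCm38.p6. No protein sequences were used here, and 1 ranked gene is not reported here.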

Additional observations from a re-analysis of the deposited data

Results flagged for a closer look

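In 4 genes the marker-holding cells lay at least 1.5-fold above the cells with 0 markers in the old library and at least 1.5-fold below them in the young library, and the difference between the libraries was not tested. Fabp4, a fatty acid carrier, had log2 differences of −0.78 (young) and 0.70 (old), but 114 of its 285 old UMIs were in 1 cell, and the old value was 0.03 without it. Hspb1, a small heat shock protein, had −0.80 and 0.59, with 31 of 162 old UMIs in 1 cell and 0.35 without it. Adm, the vasodilator adrenomedullin, had −1.33 and 0.68, with 15 of 90 old UMIs in 1 cell and 0.48 without it. Ankrd1, a nuclear protein of stretched muscle, had −1.91 and 0.63, with 25 of 47 old UMIs in 1 cell and −0.42 without it. Without its highest cell each of the 4 genes was short of 1.5-fold in the old library.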

How the results depend on the processing

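No paired analysis was possible because each age has 1 library. Among the shares and counts recomputed, 67 values stayed within 1.5 times the value reported, or within its interval for a share, and 51 did not. Counts were compared as numbers of genes, although the number of genes measured changed between settings. A count could thus stay while its share of the measured genes changed. Where no cause is evident from fewer cells or genes, the cause was not tested. With at least 4 markers the shares were 0% (young) and 0.107% (old). In the old library 42 of 725 measured genes were higher (5.79%) and 89 lower (12.3%). Of pericyte genes 0 of 1 and of contractile genes 7 of 7 were higher. With at least 2 markers the shares were 1.25% and 4.7%. In the young library 170 of 5192 measured genes were higher (3.27%) and 197 lower (3.79%). In old over young 1064 of 5625 were higher (18.9%, against 26% reported) and 348 lower (6.19%). Pericyte genes were higher in 3 of 9 (young) and 8 of 14 (old), and young contractile genes in 8 of 21. In the old library, where the counts stayed, 211 of 9028 genes (2.34%) and 10 of 24 contractile genes (41.7%) were higher. With markers counted after thinning the shares were 0% and 0.0972%. In the old library 21 of 301 measured genes were then higher (6.98%) and 25 lower (8.31%). There 0 pericyte genes were measured and 0 of 5 contractile genes were higher. The settings of at least 4 markers and of thinning left no young cells to compare. With Top2a or Mki67 cells kept, 103 of 1965 genes were higher (5.24%) and 168 lower (8.55%) in the young library. In old over young 444 of 2107 were higher (21.1%) and 177 lower (8.4%). Of young pericyte genes 0 of 3, of young contractile genes 7 of 15 and of old ones 6 of 17 were higher. With all 7 excluded genes allowed, chosen after seeing the data, 109 of 1966 genes were higher (5.54%) and 179 lower (9.1%) in the young library. In old over young 436 of 2090 were higher (20.9%) and 175 lower (8.37%). Pericyte genes were higher in 0 of 3 (young) and 8 of 10 (old), and contractile genes in 7 of 15 and 7 of 18. With at least 5 UMIs more genes were measured. Higher and lower genes were then 330 and 596 of 3183 (young, 10.4% and 18.7%) and 617 and 1205 of 7457 (old, 8.27% and 16.2%). In old over young they were 1019 and 494 of 3547 (28.7% and 13.9%). Pericyte genes were higher in 3 of 4 (young) and 10 of 14 (old), and young contractile genes in 6 of 17. Young pericyte genes also numbered 0 with the highest doublet scores removed, with depth-weighted cells (16 genes higher in all) and with Pdgfra cells as the comparison (4 contractile genes). Mean CPM per cell gave 1 young contractile gene. Of 898 values of named genes 674 stayed within their intervals and 213 moved outside them. Another 11, not counting values that began under 1.5-fold, changed sign. These were Ankrd1 old without its highest cell (−0.42), with Top2a or Mki67 cells (−0.31) and with all 7 genes allowed (−0.56), and young with 2 markers (0.07), Fabp4 old with 4 markers (−0.45) and 2 (−0.53), Thbs1 (−0.25), Cxcl5 (0.01) and Saa3 (0.27) old after thinning, and Adm (−0.12) and Lpl (0.13) old with all 7 genes allowed. The 9 young cells summed to 142857 UMIs, which left 875 genes measured, and the 49 old cells to 512894 UMIs, which left 3253.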
